A study of Mus musculus with 42 samples.

Results

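This account covers the cadherins and non-clustered protocadherins, 36 genes listed by symbol, with earlier results of these data known. They are 5 type I and 12 type II classical cadherins and 5 atypical cadherins. The rest are 4 delta-1, 5 delta-2 and 2 other protocadherins and the 3 Celsr cadherins. Every probe set that the array's annotation gives to 1 of these symbols and to no other gene was taken. That gave 75 of the 34958 probe sets with 1 symbol and 35 of the 36 genes, set against 18194 genes in all. Cdh12 had no probe set. Where a gene had several, the probe set of highest mean level was used.

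Cadherins are calcium-dependent adhesion proteins that bind like or related cadherins on the neighbouring cell. Classical cadherins are anchored to actin through catenins, while the delta protocadherins adhere weakly and recruit regulators of actin assembly, and the Celsr cadherins work with the planar polarity proteins. In the developing cerebellum, cadherins are known for marking parasagittal groups of Purkinje cells and for the placing of neurons and synapses.

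Purkinje cells, whose axons leave the cerebellar cortex, were compared with Stellate/Basket cells, inhibitory neurons that synapse on them from within the molecular layer. All came from untreated Gad67-GFP bac transgenic mice of strain CB6-Tg(Gad1-EGFP)G42Zjh/J, labelled male, in which a Gad1 transgene drives green fluorescent protein in inhibitory neurons. Slices were held in AP5, CNQX and TTX, blockers of glutamate receptors and sodium channels, and the cells were picked by hand for fluorescence and soma size. Polyadenylated RNA was amplified in 2 rounds and hybridised to Affymetrix MOE430.2 arrays. There were 3 Purkinje arrays at each of postnatal days 3, 7 and 14 (P3, P7 and P14) and 4 at each of P21, P28, P35 and P56. Stellate/Basket cells were taken at P14 (4 arrays), P21 (3), P28 (4), P35 (2) and P56 (2), after a column at P35 and another at P56 were left out as the mean of the other columns of their age. The labels call the replicates biological, and how many animals each array pools is not given in the sources used here. In pooled cells, fewer cells expressing a gene and less RNA per cell cannot be told apart.

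Values are the deposited log2 expression, from 3.94 to 14.6 over all probe sets, with array medians of 5.91 to 6.16. No detection calls were used, so a value near 5 has no certain meaning as expression. Precision depends on how many arrays a group has. Marker genes set some arrays apart. The mean level of 8 interneuron markers was 5.47 to 6.27 in Purkinje arrays from P14 on but 9.65 to 9.72 at P3 and 8.92 to 10.11 at P7, near the 9.09 to 10.73 of Stellate/Basket arrays from P14 to P35. In both Stellate/Basket P56 arrays it was 6.09, while the mean of 9 Purkinje markers was 11.53 to 12.77, against 7.63 to 9.12 at P14. Stellate/Basket arrays also rose in 11 astrocyte and Bergmann glia markers, from 6.89 to 8.46 at P14 to 11.05 to 11.51 at P56, with Purkinje arrays at 6.45 to 8.65. Their glia markers were already 9.80 to 10.20 at P21, 10.86 to 10.96 at P28 and 10.10 to 10.33 at P35. Their Purkinje markers at these ages were 8.80 to 10.41, 10.37 to 10.64 and 10.19 to 10.46. Xist, which is transcribed from the inactive X chromosome of females, read 12.77 to 12.88 in the Stellate/Basket P14 arrays and 6.47 to 6.59 in the Purkinje P14 arrays, although all are labelled male. At P21 and P28 Xist read 12.75 to 12.93 and 12.29 to 12.54 in Stellate/Basket arrays. In Purkinje arrays of these ages it read 7.13 to 11.28 and 7.08 to 11.07. The part of these differences in the results below was not tested, except where a value without some arrays or with Xist as a covariate is given. Values without the P3, P7 or P56 arrays still hold the marker and Xist differences of the remaining ages.

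A difference was called when its adjusted p in limma (Benjamini-Hochberg over the 17478 genes tested) was under 0.05 and its absolute log2 value at least 1, that is 2-fold. Genes had to exceed 5 in at least 3 arrays, and 34 members did. Cdh18, a type II cadherin, lay between 4.55 and 5.10 in the 40 arrays and was not tested. Members near 5 outside the arrays where they are high, such as Cdh1 and Pcdh15, pass such a filter through those arrays, so counts over the 34 describe these genes and no more. The members varied over a median range of 2.26 across the arrays, against 1.60 for all genes tested. 13 of the 34 (38.2%) ranged over more than 3 log2 units, where 16.1% of all genes did, and 8 (23.5%) over less than 1, where 24% of all genes did.

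**Figure D1:**
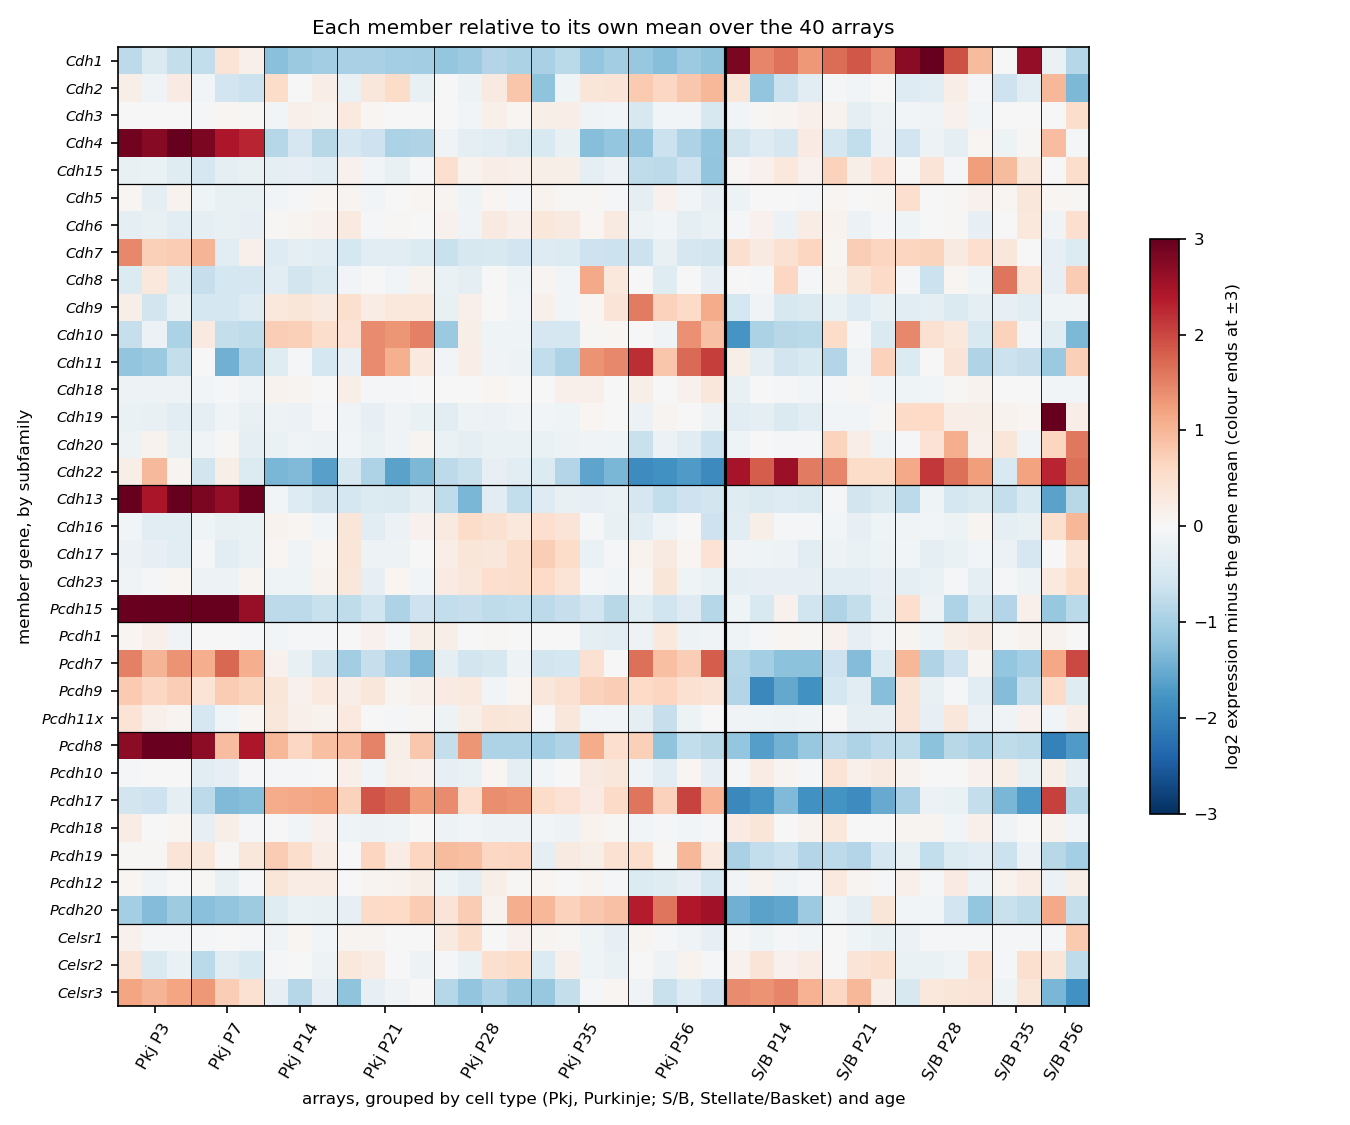
Colours give each member's log2 expression minus that gene's own mean over the 40 arrays (columns, grouped by cell type and age; rows, the 35 members on the array, by subfamily), with the colour scale ending at 3 in each direction. Cdh4, Cdh13 and Pcdh15 are high in the P3 and P7 Purkinje arrays, Cdh1 and Cdh22 in Stellate/Basket arrays, and most of the other rows are pale.

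Between the cell types, the classical cadherins Cdh22 and Cdh1 were higher in Stellate/Basket cells and the protocadherins Pcdh17, Pcdh8, Pcdh20 and Pcdh19 were higher in Purkinje cells. The difference was averaged over the 5 ages with both cell types, P14 to P56. Thus 4 members were called higher in Purkinje cells and 2 lower, 17.6% of the 34, where 11.5% of all genes tested were called (6.37% higher and 5.13% lower). By subfamily these were 3 of 5 delta-2 protocadherins and 1 of 2 other protocadherins on the Purkinje side, and 1 of 5 type I and 1 of 10 type II cadherins on the other. None of the 5 atypical, 4 delta-1 or 3 Celsr cadherins passed. The median difference of the members was -0.02, against 0.02 for all genes.

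Cdh22, a type II cadherin of pituitary and brain, ranged from 7.58 to 10.60 in the 15 Stellate/Basket arrays (median 9.59) and from 6.12 to 7.79 in the 19 Purkinje arrays of P14 to P56 (median 6.70). The cell types overlapped through a single Stellate/Basket array, P35 replicate 1 at 7.58. The difference was -2.55 ± 0.16 (SE) in log2, 5.88-fold lower in Purkinje cells, with an adjusted p in limma of 6.41e-15. Cdh22 was the only member called at each of the 5 ages, from -1.43 ± 0.39 at P35 to -3.79 ± 0.39 at P56. At P35 the call rested on Stellate/Basket replicate 2, since without it the difference was -0.60 (adjusted p 0.451 in limma).

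Cdh1, the E-cadherin of epithelia and a type I cadherin, stayed between 4.44 and 4.91 in the Purkinje arrays from P14 on. Stellate/Basket arrays read 8.55, 7.19, 7.36 and 7.01 at P14, 7.39, 7.59 and 7.23 at P21, and 8.42, 8.71, 7.62 and 6.66 at P28. They then read 5.71 and 8.35 at P35 and 5.51 and 4.86 at P56. Up to P35 every Stellate/Basket array lay above every Purkinje array of those ages, and at P56 the lower one fell within the Purkinje range. Over the ages Cdh1 was -2.35 ± 0.19 (adjusted p 3.29e-12 in limma), and it was called at 4 ages but not at P56 (-0.64). At P35 it was not called without Stellate/Basket replicate 2 (-0.99, adjusted p 0.179 in limma).

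Pcdh17, a delta-2 protocadherin known for guiding axons and organising presynaptic sites, ran from 8.58 to 10.36 in Purkinje arrays from P14 on. In Stellate/Basket arrays it ran from 6.40 to 8.15 up to P35, and then read 10.39 and 7.48 at P56. Apart from the P56 array at 10.39, the cell types did not overlap. The difference was 2.08 ± 0.18 (adjusted p 1.69e-11 in limma), and it was called at P14, P21, P28 and P35 but not at P56 (0.74). A second probe set of Pcdh17 gave 2.54 ± 0.21.

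Pcdh8, a delta-2 protocadherin induced by neuronal activity that promotes the uptake of N-cadherin, had a Purkinje median of 7.30 (5.58 to 8.27) and a Stellate/Basket median of 5.83 (4.77 to 6.02). Several Purkinje arrays of P28 to P56 lay as low as Stellate/Basket arrays. The difference was 1.31 ± 0.22 (adjusted p 9.67e-06 in limma), called at P14, P21 and P56. With each array's Xist level as a covariate it was 0.98 and no longer called (adjusted p 0.00621 in limma). A second probe set gave 0.72 ± 0.19.

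Pcdh19, an X-linked delta-2 protocadherin whose human gene is mutated in an epilepsy, had a median of 7.80 (6.97 to 8.27) in Purkinje and 6.54 (6.25 to 7.09) in Stellate/Basket arrays. A Purkinje P35 array at 6.97 was the only one inside the Stellate/Basket range. The difference was 1.11 ± 0.09 (adjusted p 4.2e-12 in limma) and 1.04 with Xist as a covariate. Its other probe sets gave 1.42 and -0.01. Its other X-linked neighbour in the list, the delta-1 protocadherin Pcdh11x, differed by at most 0.33 at any age and was not called.

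Pcdh20 ran from 6.91 to 9.78 in Purkinje arrays from P14 on (median 8.03) and from 5.66 to 8.39 in Stellate/Basket arrays (median 6.59). The ranges overlapped, but at P14, P28, P35 and P56 every Purkinje array lay above every Stellate/Basket array of its age. The difference was 1.25 ± 0.14 (adjusted p 4.67e-09 in limma), called at all shared ages but P21. Its P28 call was lost without Purkinje replicate 4 (0.90) or Stellate/Basket replicate 4 (0.84). A second probe set of Pcdh20 gave -0.03 ± 0.15, and the mean of both gave 0.61, which was not called.

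**Figure D2:**
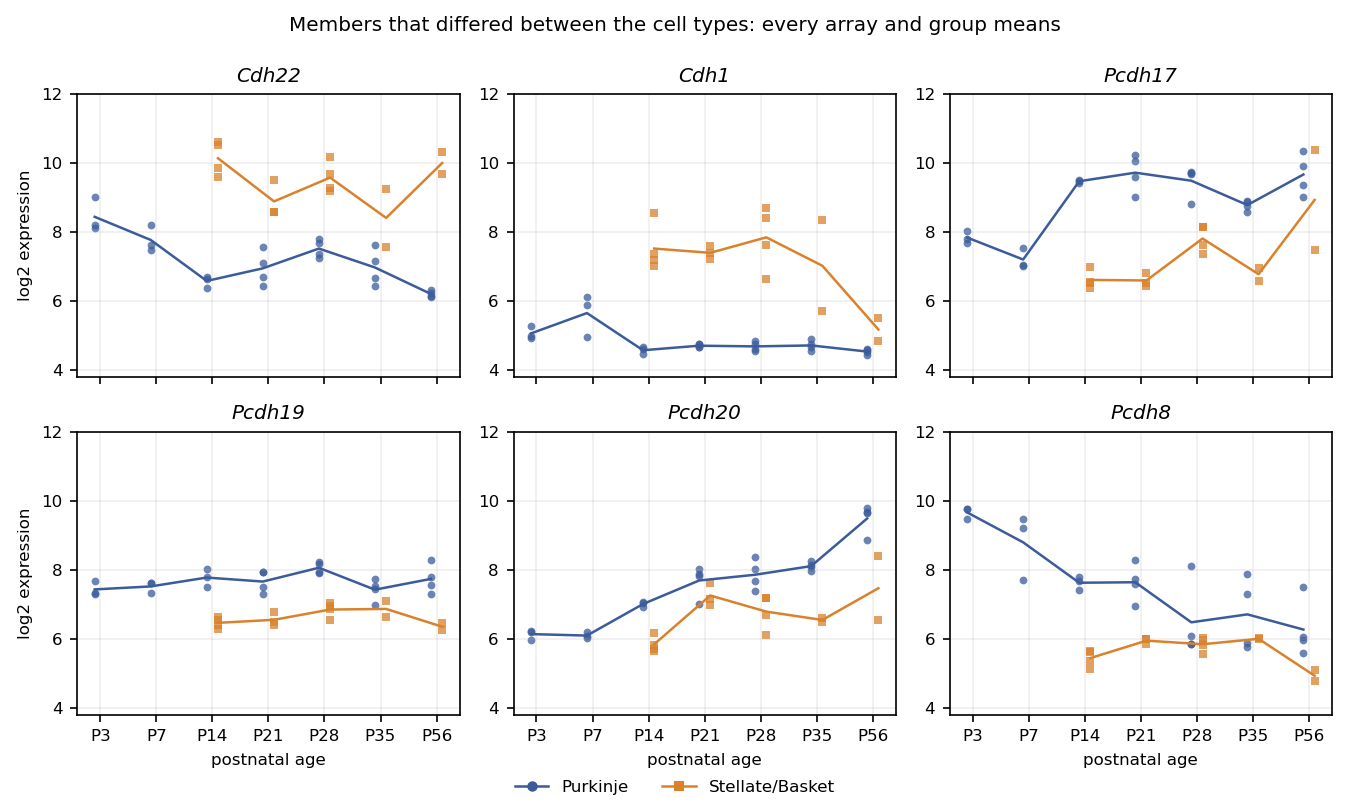
Log2 expression in every array against postnatal age for the 6 members called in the cell type difference; points are arrays (blue circles Purkinje, orange squares Stellate/Basket) and lines join group means. Cdh22 and Cdh1 are higher in Stellate/Basket cells and the 4 protocadherins in Purkinje cells, with Cdh1 down at 5.51 and 4.86 and 1 Pcdh17 array up at 10.39 at Stellate/Basket P56.

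Cdh22 and Pcdh17 had the largest called difference in each direction, and the 250 bases before their RefSeq gene starts (GRCm38.p6) are shown for that reason, 5′ to 3′ on the gene's strand. Capitals mark GGGCGG or its reverse complement CCGCCC, the core of a GC box. The Cdh22 window is chr2:165234738-165234987 on the minus strand, and the Pcdh17 window is chr14:84443313-84443562 on the plus strand.
Cdh22: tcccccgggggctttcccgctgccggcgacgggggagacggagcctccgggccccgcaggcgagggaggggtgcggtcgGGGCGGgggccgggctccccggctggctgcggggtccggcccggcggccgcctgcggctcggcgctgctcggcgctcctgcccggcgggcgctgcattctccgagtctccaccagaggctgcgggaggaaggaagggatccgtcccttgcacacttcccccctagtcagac
Pcdh17: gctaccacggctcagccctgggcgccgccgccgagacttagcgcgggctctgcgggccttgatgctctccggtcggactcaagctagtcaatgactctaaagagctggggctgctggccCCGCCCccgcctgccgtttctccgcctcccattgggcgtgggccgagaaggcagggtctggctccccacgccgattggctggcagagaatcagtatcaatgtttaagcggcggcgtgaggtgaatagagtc
Both windows are rich in CG dinucleotides, with 30 in Cdh22 and 21 in Pcdh17, against a median of 6 over 32851 RefSeq promoter windows. The 22 members with an entry had 25 windows with a median of 11. GGGCGG, searched on both strands, was in 32.7% of all windows and in 9 of the 25.

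Pcdh8, Pcdh17, Pcdh20 and Pcdh9 lie in this order on chromosome 14 of GRCm38.p6, with 1, 2 and 0 other protein-coding genes between neighbours. At P14 all of these 4 were called higher in Purkinje cells, where 6.59% of all genes tested were. The differences were 2.18 ± 0.48 for Pcdh8, 2.85 ± 0.39 for Pcdh17, 1.17 ± 0.30 for Pcdh20 and 1.81 ± 0.22 for Pcdh9. The P14 calls of Pcdh20 and Pcdh8 held whichever array was left out. Under other settings of the fit they could be lost, with adjusted p in limma up to 0.141 and 0.0749. The second probe set of Pcdh20 given above was not called over ages. At no other age were all 4 called. At P21 Pcdh8 and Pcdh17 were, and at P28 Pcdh17 and Pcdh20. At P35 Pcdh17, Pcdh20 and Pcdh9 were called, and at P56 Pcdh8 and Pcdh20. Pcdh9, a delta-1 protocadherin, read 11.25, 11.02 and 11.18 in Purkinje P14 arrays and 10.01, 8.95, 9.34 and 9.06 in Stellate/Basket P14 arrays. Averaged over ages it was just under the threshold at 0.98 ± 0.10 and was called at P14 and P35. Members with no protein-coding gene between them were also Cdh6, Cdh9, Cdh10 and Cdh12 on chromosome 15, Cdh8, Cdh11 and Cdh5 as well as Cdh3 and Cdh1 on chromosome 8, and Cdh7 and Cdh19 on chromosome 1. Of the first run, Cdh6, Cdh9 and Cdh10 gave -0.37, 1.11 and 1.37 at P56. Cdh9 and Cdh10 were called at this age, where 14.8% of all genes tested were called higher. Each of these calls was lost in at least 1 fit that left out an array. Cdh9 was called at no other age, and Cdh10 was also called at P14 and P21 but read -0.74 at P28 and -0.54 at P35.

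Age by age, 6 members were called higher in Purkinje cells and 3 lower at P14, 26.5% of the 34, where 13.3% of all genes tested were called (6.59% higher, 6.73% lower). At P21 these were 4 and 2 (17.6%, against 13.5% of all genes, 6.81% higher and 6.67% lower). At P28 they were 3 and 4 (20.6%, against 16.5%, 8.36% higher and 8.14% lower). At P35 they were 3 and 2 (14.7%, against 11.4%, 5.86% higher and 5.5% lower). At P56 they were 7 and 6 (38.2%, against 20.6%, 14.8% higher and 5.82% lower). Centring each array on its median gave 8 higher and 4 lower at P56. In all, 17 of the 34 were called at 1 or more ages, where 33.9% of all genes tested were, and 14 kept their sign at all 5, where 29.2% of all genes did.

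Celsr3, a Celsr cadherin required for major axon tracts, was the only member called in both directions. At P14 it read 7.15, 6.55 and 7.14 in Purkinje and 8.81, 8.74, 8.87 and 8.44 in Stellate/Basket arrays. At P56 it read 7.30, 6.74, 7.02 and 6.78 in Purkinje and 6.03 and 5.59 in Stellate/Basket arrays. The groups did not overlap at either age, and Stellate/Basket arrays were the higher at P14 and the lower at P56. The differences were -1.77 ± 0.28 at P14, -1.17 ± 0.26 at P28 and 1.15 ± 0.31 at P56 (adjusted p 7.4e-06, 0.000466 and 0.00373 in limma). At P56 the call was lost without Stellate/Basket replicate 3 (0.93, adjusted p 0.106).

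The other members called at P56 were Cdh4 (-1.42 ± 0.26), Cdh15 (-1.11 ± 0.23), Cdh16 (-1.0 ± 0.19), Cdh19 (-1.70 ± 0.34), Cdh20 (-1.55 ± 0.22), Cdh9 (1.11 ± 0.18), Cdh10 (1.37 ± 0.45) and Cdh11 (1.90 ± 0.57). At this age the Stellate/Basket group has 2 arrays, whose interneuron markers were as low as in Purkinje arrays. Without replicate 1 the calls of Cdh4 (-0.94), Cdh11 (1.0), Cdh19 (-0.25) and Pcdh8 were lost, and without replicate 3 those of Cdh10 (0.87), Cdh15 (-0.85), Cdh16 (-0.74), Pcdh8 and Celsr3. Without Purkinje replicate 1 the calls of Cdh9 (0.92), Cdh16 (-0.98) and Pcdh8 (0.93) were lost, and without Purkinje replicate 4 those of Cdh15 (-0.99) and Cdh16 (-0.88). Without any P56 Stellate/Basket array and without the P3 and P7 Purkinje arrays, the cell type difference was called for 8 of 33 members tested, where 12.2% of all genes were called. These were 5 higher and 3 lower, namely the 6 above, Pcdh9 (1.12) and Celsr3 (-1.12).

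Cdh10, a type II cadherin, was higher in Purkinje cells at P14 (1.75 ± 0.40) and P21 (1.16 ± 0.40) and read -0.74 at P28 and -0.54 at P35. Its P21 call was lost when any of 5 single arrays was left out. Cdh7, also type II, was lower in Purkinje cells at P28 (-1.06 ± 0.19). From P14 to P35 its Purkinje arrays, 5.74 to 6.12, all lay under its Stellate/Basket arrays, 6.42 to 7.13. Over these ages Cdh1 and Cdh7 were lower and Pcdh17 higher in Purkinje cells with no overlap between arrays, where 8.26% of all genes tested did not overlap.

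**Figure D3:**
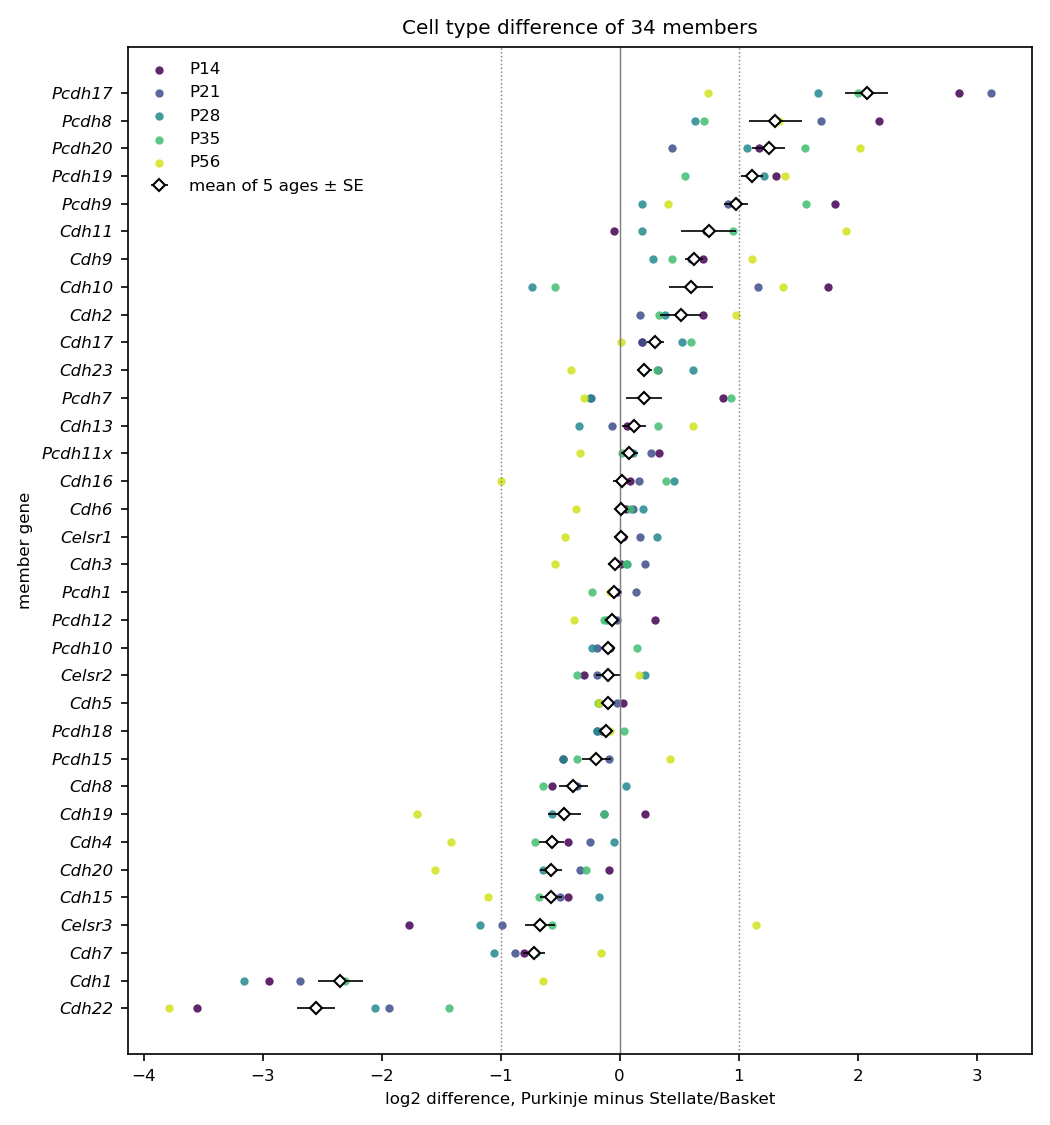
Log2 difference, Purkinje minus Stellate/Basket, of the 34 tested members at each of 5 ages (coloured points) and averaged over them (open diamonds, bars ± SE); dotted lines mark 1 and -1. Cdh22 and Cdh1 lie furthest to the left and Pcdh17 furthest to the right, and the P56 points of Celsr3, Cdh19, Cdh20 and Cdh11 lie apart from those of the earlier ages.

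In the arrays labelled Purkinje, the largest changes fell between P7 and P14. Cdh4, Cdh13 and Pcdh15 fell more than 8-fold, and Pcdh20, Cdh11 and Pcdh17 were higher at P56 than at P3. From P3 to P56, 7 members fell and 5 rose, 35.3% of the 34, where 16.5% of all genes tested were called (8.71% higher, 7.81% lower). These were 1 of 5 type I cadherins (lower), 5 of 10 type II (3 higher, 2 lower), 2 of 5 atypical (lower), 2 of 5 delta-2 (1 each way), Pcdh20 and Celsr3. Over the 7 Purkinje ages, an F test in limma called 22 of the 34 at an adjusted p under 0.05, against 56.3% of all genes.

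Cdh4, the R-cadherin of retina and brain, read 9.95, 9.77 and 10.05 at P3 and 9.88, 9.46 and 9.33 at P7, and 5.77 to 6.95 in the 19 later Purkinje arrays. Its change from P3 to P56 was -3.86 ± 0.23 (adjusted p 1.35e-14 in limma), and -3.25 ± 0.25 of it lay between P7 and P14. Cdh13, T-cadherin, which lacks a cytoplasmic tail and is held by a lipid anchor, read 11.44, 10.22 and 10.76 at P3 and 10.60, 10.42 and 10.72 at P7. It then read 6.40 to 7.69 in the later Purkinje arrays. From P3 to P56 it changed by -3.63 ± 0.21 (adjusted p 7.17e-15 in limma), and a second probe set gave -3.99 ± 0.15, while the remaining 2 gave 0.11 and -0.15.

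Pcdh15, an atypical cadherin that forms the tip links of hair cells together with Cdh23, read 8.38, 8.84 and 9.18 at P3 and 9.17, 8.69 and 8.03 at P7. No later Purkinje array exceeded 5.05. The change from P3 to P56 was -3.95 ± 0.26 (adjusted p 1e-13 in limma), 15.4-fold. Its other probe sets gave -1.70 ± 0.38 and -0.08 ± 0.12. Cdh23 itself stayed between 5.73 and 6.63 in all arrays. It was called in no difference between cell types or ages, only in the F tests over ages.

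Cdh4, Cdh13 and Pcdh15 lay higher in the P3 and P7 arrays than in every later Purkinje array and than in every Stellate/Basket array, whose highest values were 7.96, 7.74 and 5.91. Against the Stellate/Basket arrays Pcdh8 and Pcdh19 were also higher without overlap and Cdh15 lower, where 2.79% of all genes tested did not overlap. Against the later Purkinje arrays Cdh1 and Celsr3 were also higher, and Pcdh17 and Pcdh20 lower, where 14.0% of all genes did not overlap. For Cdh1 the lowest P3 or P7 array read 4.93 and the highest later one 4.91, a level with no certain meaning as expression. The P3 and P7 arrays carried interneuron markers at the Stellate/Basket level, and Purkinje markers at a mean of 8.01 and 9.71 against 12.90 or more later. Golgi and unipolar brush cell markers had a mean of 9.0 and 8.94 in these arrays and 6.77 or less in all other groups. Other cells' part in the early levels was not tested.

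Pcdh8 read 9.47, 9.76 and 9.75 at P3, 9.46, 7.70 and 9.22 at P7, and 7.49, 5.58, 6.04 and 5.96 at P56. Its change was -3.39 ± 0.48 (adjusted p 1.08e-06 in limma). Every P56 array lay under every P3 and P7 array, and the P14 and P21 arrays lay between 6.96 and 8.27. TATAAA, the core of a TATA box, was found on either strand in 12.4% of all windows before a gene start. Among the 25 member windows it was in 2, those of Pcdh15 and Pcdh8. Both windows are shown with it in capitals, Pcdh15 at chr10:73821617-73821866 on the plus strand and Pcdh8 at chr14:79771313-79771562 on the minus strand.
Pcdh15: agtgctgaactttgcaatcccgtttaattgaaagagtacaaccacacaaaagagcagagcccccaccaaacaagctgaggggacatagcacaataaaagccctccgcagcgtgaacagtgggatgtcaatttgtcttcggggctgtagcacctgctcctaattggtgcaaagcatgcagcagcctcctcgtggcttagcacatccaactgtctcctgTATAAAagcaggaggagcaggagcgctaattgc
Pcdh8: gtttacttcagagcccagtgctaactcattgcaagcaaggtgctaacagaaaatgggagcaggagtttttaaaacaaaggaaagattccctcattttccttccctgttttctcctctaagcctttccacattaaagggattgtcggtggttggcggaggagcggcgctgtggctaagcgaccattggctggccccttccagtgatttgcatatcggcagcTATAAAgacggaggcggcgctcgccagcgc
CAGCTG, an E-box that basic helix-loop-helix factors bind, was in 13% of all windows and in those of Cdh9 and Cdh12. AGGTCA, a site that RORA and other nuclear receptors bind, was in 14% and among members in that of Cdh18. Cdh1, Cdh4 and Cdh13 had no entry.

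Cdh22 read 8.21, 9.01 and 8.12 at P3 and 6.16, 6.23, 6.34 and 6.12 at P56, a change of -2.23 ± 0.34. Celsr3 read 8.58, 8.41 and 8.58 at P3 and changed by -1.56 ± 0.28. Cdh7 read 7.85, 7.12 and 7.16 at P3 and 5.75, 6.18, 5.89 and 5.84 at P56, a change of -1.46 ± 0.20. For all of these the P3 arrays lay above the P56 arrays.

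Pcdh20 was the member with the largest rise, from 6.24, 5.97 and 6.20 at P3 to 9.63, 8.87, 9.66 and 9.78 at P56, by 3.35 ± 0.30 (adjusted p 1.26e-10 in limma). Group values did not overlap between P7 and P14 or between P35 and P56. Cdh11, the OB-cadherin of mesenchyme and brain, read 4.80, 4.86 and 5.26 at P3 and 8.18, 6.81, 7.68 and 8.05 at P56, and rose by 2.71 ± 0.50. Pcdh17 read 7.79, 7.70 and 8.05 at P3 and 9.93, 9.02, 10.36 and 9.38 at P56, and rose by 1.83 ± 0.39. Its step from P7 to P14 alone was 2.27 ± 0.41.

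Cdh9, a type II cadherin known for its part in hippocampal synapse formation, read 5.78, 5.04 and 5.36 at P3 and 7.16, 6.28, 6.18 and 6.70 at P56, and rose by 1.18 ± 0.16. Cdh10 read 6.15, 6.67 and 5.91 at P3 and 6.85, 6.75, 8.21 and 7.74 at P56, and rose by 1.14 ± 0.40 (adjusted p 0.0242 in limma). The Cdh10 call was lost when any of 4 single arrays was left out, and with P35 as the last age the changes of Cdh10 (0.37), Cdh9 (0.33) and Pcdh17 (0.94) were not called, and Cdh11 rose by 1.28 (adjusted p 0.0489 in limma).

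By single steps, no member was called from P3 to P7 (0.0515% of all genes), from P14 to P21 (0.0629%) or from P28 to P35 (0.383%). From P7 to P14, 6 fell and 1 rose, 20.6% of the 34 where 12.7% of all genes were called (5.79% higher, 6.95% lower). Besides Cdh4, Cdh13, Pcdh15 and Pcdh17 these were Pcdh7 (-1.52 ± 0.35), Celsr3 (-1.29 ± 0.30) and Cdh22 (-1.18 ± 0.37). The Cdh22 step was not called without Purkinje P7 replicate 2 or P14 replicate 3. From P21 to P28 only Cdh10 was called (-1.47 ± 0.37; 0.618% of all genes). From P35 to P56, Pcdh7 (1.44 ± 0.30), Cdh11 (1.43 ± 0.46) and Pcdh20 (1.38 ± 0.28) rose, where 2.85% of all genes were called. In Stellate/Basket cells Pcdh20 rose (1.41 ± 0.30) and Cdh22 fell (-1.25 ± 0.34) from P14 to P21, where 1.77% of all genes were called, and no member was called from P21 to P28 (1.01%).

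**Figure D4:**
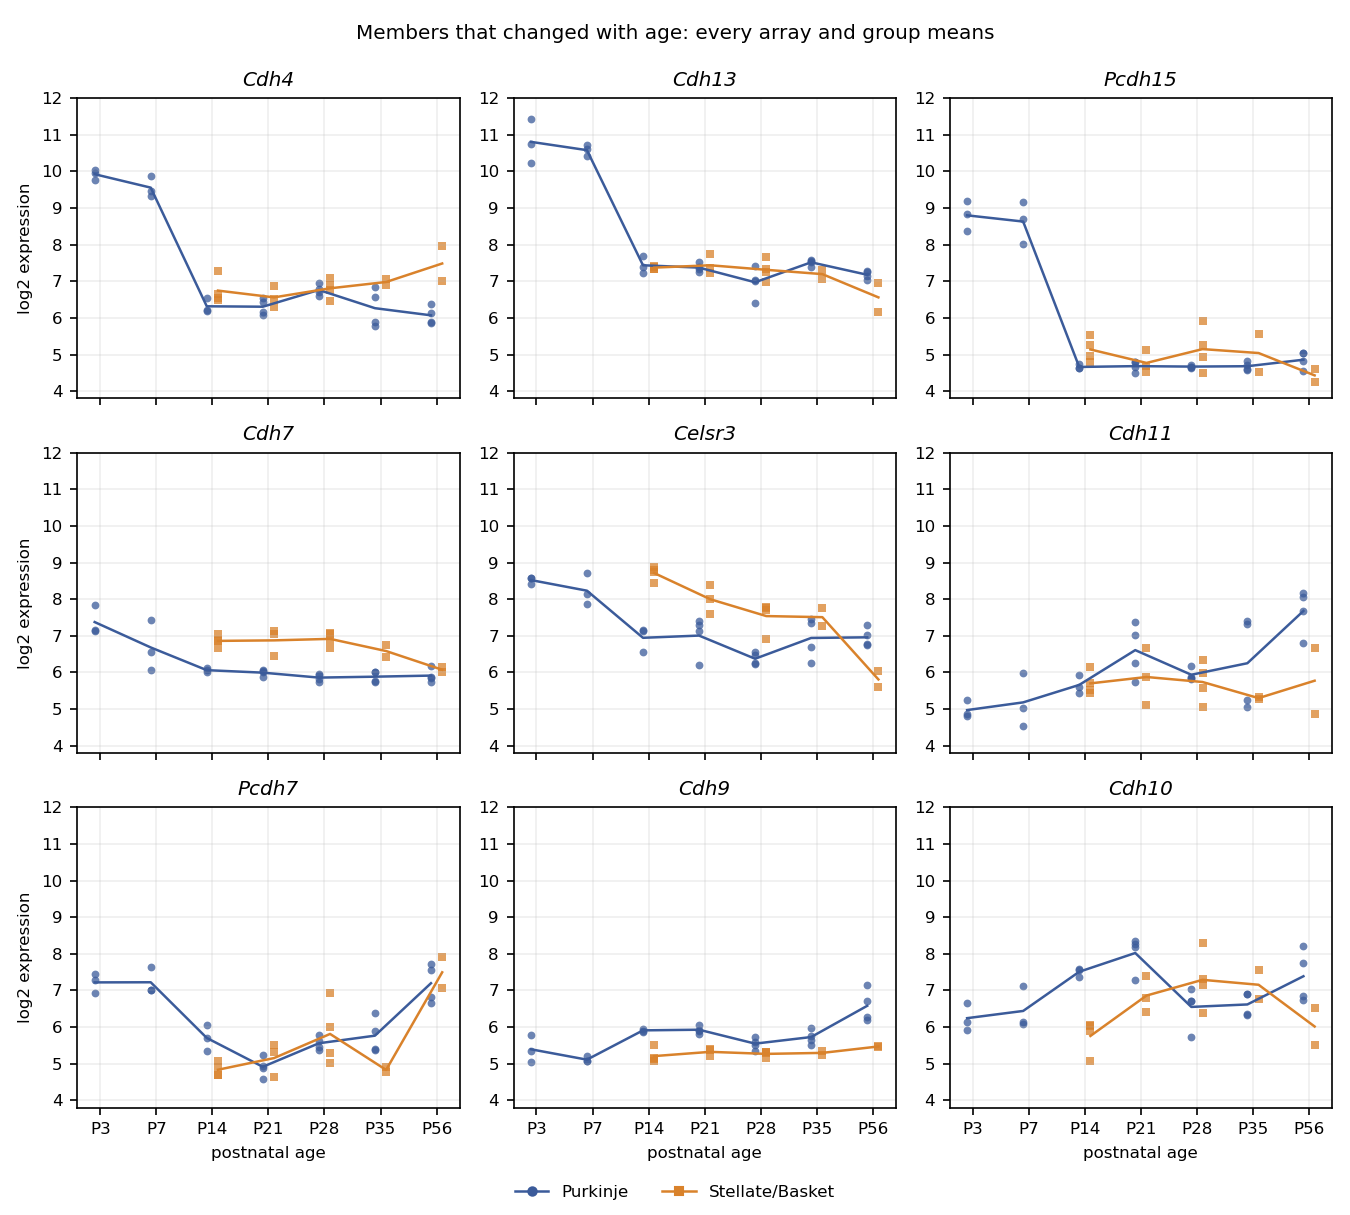
Log2 expression in every array against postnatal age for 9 members that changed with age; points are arrays (blue circles Purkinje, orange squares Stellate/Basket) and lines join group means. Cdh4, Cdh13 and Pcdh15 drop between P7 and P14 in Purkinje arrays, Celsr3 declines from P14 to P56 in Stellate/Basket arrays, and Cdh11 and Pcdh7 are high at Purkinje P56.

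From P14 to P56, Pcdh20, Cdh11 and Pcdh7 rose in Purkinje cells and no member fell, 8.82% of the 34 where 1.69% of all genes tested were called (1.3% higher, 0.389% lower). In Stellate/Basket cells Celsr3 and Cdh1 fell, and Pcdh7, Pcdh17, Cdh19, Pcdh9, Pcdh20 and Cdh20 rose. Those 8 are 23.5% of the 34, where 18.7% of all genes were called (6.47% higher, 12.3% lower). An F test over the 5 Stellate/Basket ages in limma called 16 of the 34, against 40.5% of all genes.

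In Purkinje cells Pcdh20 rose by 2.48 ± 0.30 and Cdh11 by 2.02 ± 0.50 (adjusted p 4.79e-06 and 0.0068 in limma). Pcdh7, a delta-1 protocadherin, read 6.05, 5.70 and 5.36 at P14, 4.59 to 5.23 at P21 and 7.57, 6.82, 6.67 and 7.73 at P56, and rose by 1.5 ± 0.32 (adjusted p 0.00226). Its P56 arrays lay above all arrays from P14 to P35, and its P3 and P7 arrays read 6.94 to 7.64. With P35 as the last age none of the 34 was called in Purkinje cells (0.612% of all genes): Cdh11 changed by 0.59, Pcdh7 by 0.06 and Pcdh20 by 1.10 (adjusted p 0.0611 in limma). Without the P3 and P7 arrays as well, the 1.10 of Pcdh20 passed (adjusted p 0.0274).

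In Stellate/Basket cells the group mean of Celsr3 was lower at each age, with arrays of 8.44 to 8.87 at P14, 7.59 to 8.40 at P21 and 6.91 to 7.78 at P28. Arrays of P35 read 7.26 and 7.76 and those of P56 6.03 and 5.59, and the change was -2.91 ± 0.31 (adjusted p 1.1e-08 in limma). With P35 as the last age it was still called, at -1.21. Cdh1 changed by -2.34 ± 0.46 to P56 and by -0.50 to P35, which was not called.

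Pcdh7 read 5.06, 4.90, 4.68 and 4.70 at Stellate/Basket P14, 4.76 and 4.90 at P35 and 7.08 and 7.91 at P56, and rose by 2.66 ± 0.37 to P56. To P35 it changed by -0.01. Pcdh9 read 11.46 and 10.52 at P56 and rose by 1.65 ± 0.25, with both P56 arrays above all 4 P14 arrays. Cdh20, a type II cadherin, read 6.36, 6.47, 6.45 and 6.42 at P14 and 7.12 and 8.07 at P56, and rose by 1.17 ± 0.22. Without Stellate/Basket P56 replicate 3 its change was 0.70 and not called.

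The 2 Stellate/Basket P56 arrays were far apart in several members, and replicate 1 alone carried 3 of the calls. Cdh19, a type II cadherin known from cells of the glial lineage, read 4.59 to 4.76 at P14 and 8.11 and 5.21 at P56. Its change of 1.97 ± 0.34 was 0.52 without replicate 1. Pcdh17, at 10.39 and 7.48 at P56, rose by 2.31 ± 0.44 with both arrays and by 0.86 without replicate 1 (adjusted p 0.0822 in limma). Pcdh20, at 8.39 and 6.54, rose by 1.62 ± 0.34 with both and by 0.70 without replicate 1. From P14 to P56 the Stellate/Basket interneuron marker mean moved from 10.49 to 6.09, the Purkinje marker mean from 8.45 to 12.15 and the astrocyte and Bergmann glia mean from 7.59 to 11.28. With P35 as the last age 3 members were called in Stellate/Basket cells (5.53% of all genes), Celsr3, Cdh22 (-1.73) and Cdh10 (1.40). From P35 to P56 alone, 5 members rose and 2 fell, where 11.6% of all genes were called. Pcdh7 (2.67), Pcdh17 (2.15), Cdh22 (1.59), Cdh19 (1.55) and Pcdh9 (1.11) rose, and Cdh1 (-1.85) and Celsr3 (-1.70) fell.

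The change from P14 to P56 differed between the cell types for 8 members, 3 higher and 5 lower in Purkinje than in Stellate/Basket cells, 23.5% of the 34 where 20.1% of all genes tested were called (13.0% higher, 7.04% lower). Median centring gave 4 and 4. Celsr3 (2.92 ± 0.42), Cdh1 (2.31 ± 0.62) and Cdh11 (1.95 ± 0.76) had the positive differences. Pcdh17 (-2.11 ± 0.59), Cdh19 (-1.92 ± 0.45), Cdh20 (-1.47 ± 0.30), Pcdh9 (-1.40 ± 0.34) and Cdh16 (-1.09 ± 0.25) had the negative ones. Cdh16, the kidney-specific cadherin, read 6.26 to 6.78 at Stellate/Basket P14 and 7.08 and 7.60 at P56, while Purkinje arrays read 6.53 to 6.70 and 5.97 to 6.62. The Cdh11 call (adjusted p 0.0435 in limma) was lost in 9 of the fits that left out 1 array. The Cdh16 call was lost in 2 such fits, and those of Pcdh17, Cdh19, Cdh20 and Pcdh9 in 1 each. The weakest differences in these fits were -0.66 for Pcdh17, -0.46 for Cdh19, -0.93 for Pcdh9 and -0.83 for Cdh16. Celsr3 and Cdh1 kept their calls whichever array was left out. With P35 as the last age 2 members were called (2.64% of all genes), Cdh10 (-2.29) and Cdh22 (2.12), and none of these 8.

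**Figure D5:**
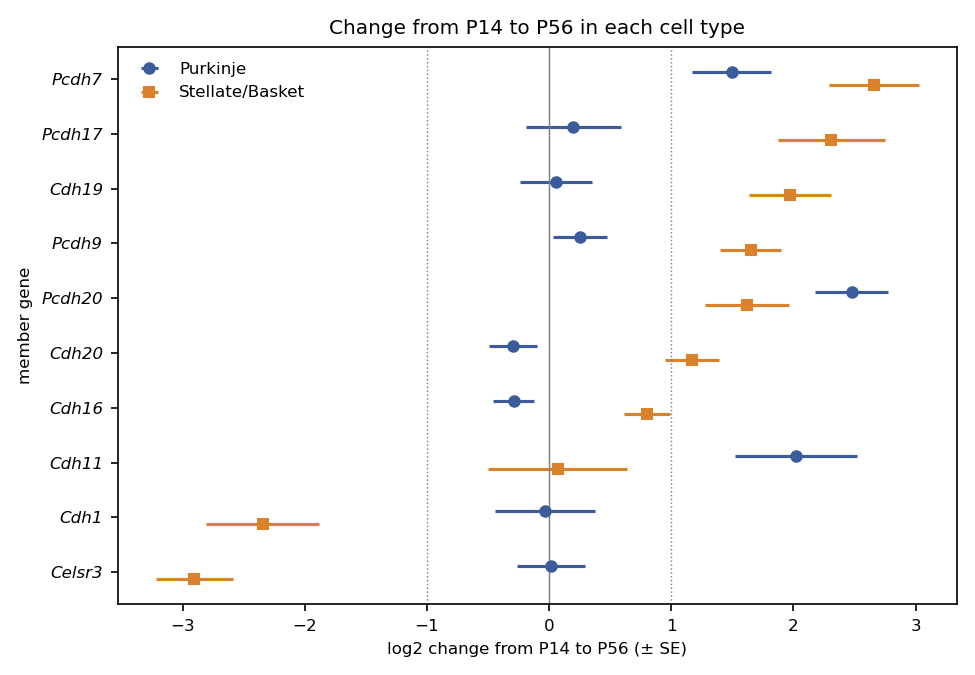
Log2 change from P14 to P56 (points, bars ± SE) in Purkinje (blue circles) and Stellate/Basket cells (orange squares) for the 10 members called in either change or in their difference; dotted lines mark 1 and -1. Celsr3 (-2.91) and Cdh1 (-2.34) lie far to the left in Stellate/Basket cells, Pcdh7 and Pcdh20 lie right of 1 in both cell types, and Cdh11 lies at 2.02 in Purkinje cells.

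The remaining members were called in none of the differences between cell types or between 2 ages above, apart from Cdh8 in 1 step. The F tests over ages, which set no minimum difference, called Cdh6, Cdh8, Cdh17, Cdh23, Pcdh11x and Pcdh12 in Purkinje arrays. In Stellate/Basket arrays they called Cdh8, Cdh23 and Celsr1. Cdh2, the N-cadherin of neurons and the main partner of many synapses, ran from 8.61 to 10.82 in Purkinje and from 8.46 to 10.82 in Stellate/Basket arrays and was not called in any of the 11 comparisons. Its differences between the cell types were 0.17 to 0.98 and all positive. Celsr2, which maintains dendrites, stayed between 8.53 and 9.89 and was not called either. Cdh3, Cdh5, Cdh6, Cdh23, Pcdh1, Pcdh10, Pcdh12 and Pcdh18 each ranged over less than 1 log2 unit in all 40 arrays. Among these Cdh5 and Pcdh12, known from endothelium, ran from 4.92 to 5.71 and from 5.55 to 6.45. Celsr1, Pcdh11x, Cdh17 and Cdh8 ranged over 1.04, 1.09, 1.24 and 2.29, and of these Cdh8 alone was called in a step, from Stellate/Basket P28 to P35 (1.2 ± 0.29; 1.34% of all genes).

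For a few members other probe sets gave other calls. Cdh6, a type II cadherin, did not differ on the probe set used (0.02 ± 0.06), while its other probe set gave -1.36 ± 0.13 for the cell type difference and fell by 2.87 ± 0.32 between P14 and P56 in Stellate/Basket cells. Cdh4 gave -0.57 ± 0.11 between the cell types on the probe set used and -1.13 ± 0.084 on another, with a change of -4.63 ± 0.18 from Purkinje P3 to P56 on the latter. Pcdh10, a delta-2 protocadherin, changed by -0.14 from Purkinje P3 to P56 on the probe set used and by 1.83 ± 0.51 on another. That probe set also rose by 2.28 ± 0.57 in Stellate/Basket cells from P14 to P56. Calls also differed for Pcdh9 (1.04 between the cell types), Cdh2 (1.14 from Purkinje P3 to P56), Pcdh19 (1.22 from Purkinje P3 to P56) and Cdh11 (1.19 from Stellate/Basket P14 to P56). The other probe sets of Pcdh7 and Cdh10 were called neither between the cell types nor in these 2 changes nor from Purkinje P14 to P56. Which transcripts these probe sets read was not analysed here.

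Among genes that work with cadherins, 14 catenins and cadherin tail partners were tested. Averaged over the ages, 5 were lower in Purkinje than in Stellate/Basket cells and none was higher, where 5.13% of all genes were lower. Vcl, the actin linker vinculin (-2.18 ± 0.13), was called at each of the 5 ages. Ctnna1, alpha-catenin, averaged -1.74 ± 0.30, but it read 1.58 ± 0.64 at P14 and -0.53 at P21, neither called, and was called lower at P28, P35 and P56 (-3.63 ± 0.73). The rest, Cask, Magi1 and Pkp4, were called lower at each age from P14 to P35. At P56 Cask was called higher in Purkinje cells (1.23 ± 0.32), and Magi1 (0.03) and Pkp4 (0.08) were not called. From P3 to P56 in Purkinje arrays 5 of the 14 fell, where 7.81% of all genes did, among them Cask (-2.13 ± 0.28) and Magi1 (-1.74 ± 0.29), both scaffold proteins. That change rests on the P3 arrays, which carried markers of other cell types. In Stellate/Basket cells Ctnna1 rose by 5.04 ± 0.73 from P14 to P56, while Magi1 (-2.37 ± 0.32) and 2 others fell. Of all genes tested, 6.47% were called higher and 12.3% lower in this change. It rests on the 2 Stellate/Basket P56 arrays, which carried markers of other cell types.

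Of 10 planar polarity partners of the Celsr cadherins, Fzd3, a Wnt receptor that acts with Celsr3 in axon tracts, was lower in Purkinje cells (-2.14 ± 0.085) and fell from P3 to P56 in Purkinje arrays (-3.29 ± 0.18). It fell in Stellate/Basket cells from P14 to P56 too (-2.14 ± 0.21), as Celsr3 did. The Purkinje fall rests on the P3 arrays and the Stellate/Basket fall on the 2 P56 arrays, both with markers of other cell types. Between the cell types at P56 Fzd3 read -0.64 and was not called. Of the 10, 2 were higher and 2 lower between the cell types, where 6.37% of all genes were higher and 5.13% lower. Of 12 Fat, Dachsous, calsyntenin and desmosomal cadherins, Clstn2 was higher (3.88 ± 0.19) and 3 were lower in Purkinje cells, among them Clstn1 (-3.44 ± 0.16). Adam10, the protease that cleaves N-cadherin, was the only 1 of 6 cleavage and turnover genes called between the cell types (-1.35 ± 0.091), where 11.5% of all genes were called. Wasf1, a subunit of the actin regulator that delta protocadherins recruit, was the only 1 of 8 such partners (-2.0 ± 0.17), called at each age but P56, where it read 0.56.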

How the data were processed

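The authors' deposited table held normalized log2 values for each probe set, judged by their range; GCRMA and R 2.9.1 appear in the submitters' processing notes, without order or settings. In 2 of the 42 columns (Stellate/Basket P35 replicate 3 and P56 replicate 2) every value equalled the mean of the other 2 columns of the group within 1e-06, and they were left out. The members and gene lists were chosen with earlier results of these data known. Of 45101 probe sets, 34958 carried 1 symbol in GEO's platform annotation, 932 several and 9211 none. The probe set with the highest mean stood for a gene. Genes above 5 in at least 3 of 40 arrays entered a linear model (limma 3.58.1, R 4.3.3) with a mean for each of the 12 groups and moderated variances. Differences are Purkinje minus Stellate/Basket, or later minus earlier age. On simulated data with 200 of 17478 genes changed, the fit recovered 100% of changes of 1.5 in the cell type difference, 93% for Purkinje P3 to P56, 85% for Purkinje P14 to P56, 91% for Stellate/Basket P14 to P56 and 74% for the difference between those changes. Values were given for members called in the cell type difference, in Purkinje P3 to P56, in either change from P14 to P56 or in their difference, and up to 2 called genes of each list with the largest values. Promoter windows came from RefSeq (GRCm38.p6), with 4 motifs searched. Alternatives covered the filter, probe set summary, variance model, weights, scaling, thresholds, samples in the fit, the Xist level, P35 as the last age and each array left out. Python 3.11.15 and matplotlib 3.10.9 were used for tables and plots.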

Additional observations from a re-analysis of the deposited data

Results flagged for a closer look

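In groups of 4 arrays, a member's highest or lowest array stood far from the nearest of the others in 8 of 114 groups of the 19 members named; chance gives about 1 in 20. Purkinje P28 replicate 2 held 4 of the 8: Pcdh8 at 8.11 (nearest array 6.08), Pcdh17 at 8.83 (9.68), Cdh11 at 6.18 (5.88) and Cdh20 at 6.20 (6.28). The others were Cdh10 at 7.29 in Purkinje P21 replicate 1 (8.18) and at 5.07 in Stellate/Basket P14 replicate 1 (5.89), Pcdh20 at 8.87 in Purkinje P56 replicate 2 (9.63) and Celsr3 at 6.91 in Stellate/Basket P28 replicate 1 (7.71).

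The change from P14 to P56 differed between the cell types by the interaction contrast of limma for 8 members. The Purkinje change minus the Stellate/Basket change was 2.92 for Celsr3, 2.31 for Cdh1, 1.95 for Cdh11, -1.09 for Cdh16, -1.40 for Pcdh9, -1.47 for Cdh20, -1.92 for Cdh19 and -2.11 for Pcdh17. These values rest on the 2 Stellate/Basket P56 arrays, in which Purkinje markers were high and interneuron markers low, and the part of those cells in the differences was not tested.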

How the results depend on the processing

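Alternatives kept the direction of every called member in the 11 comparisons, apart from the change of Pcdh7 in Stellate/Basket cells (-0.01) and the difference between changes of Cdh16 (0.30), which turned sign with P35 as the last age, also in the fit without Purkinje P3 and P7 and Stellate/Basket P56. For the cell type difference 93 of 96 values kept their call under other settings and 240 of 240 with an array left out. In comparison order (cell type difference over ages, at P14, P21, P28, P35 and P56, Purkinje P3 to P56, P7 to P14 and P14 to P56, Stellate/Basket P14 to P56, difference between changes), the genes called were 2009, 2327, 2355, 2884, 1985, 3599, 2888, 2227, 296, 3275 and 3507. Adjusted p alone, with no minimum difference, gave 9277, 4071, 4529, 7774, 3373, 8191, 6039, 3694, 2464, 6339 and 6361. For members it gave 21 over ages, 10 at P21, 12 at P28, 8 at P35, 11 from Purkinje P7 to P14, 6 and 14 from P14 to P56 in Purkinje and Stellate/Basket cells and 14 for their difference. The mean of a gene's probe sets gave 1332 genes over ages, 1914 (4 members) at P28 and 137 for Purkinje P14 to P56. Array weights gave 1766 genes (7 members) at P56, 461 for Purkinje and 1505 (5 members) for Stellate/Basket P14 to P56 and 2017 for the difference. Fitting only the groups compared gave 3 members at P35, 2246 genes at P56 and 5 members for Stellate/Basket P14 to P56. An adjusted p under 0.01 gave 175 genes for Purkinje P14 to P56. With P35 as the last age the 3 changes gave 107, 966 and 462 genes and 0, 3 and 2 members. Leaving out the Purkinje P3 and P7 and Stellate/Basket P56 arrays, chosen after seeing the data, gave 134, 1063 and 626 genes and 1, 3 and 2 members. Leaving out 1 array gave 186 to 413 genes for Purkinje P14 to P56, the lowest without Purkinje P14 replicate 3, and 2456 to 5061 at P56. Median centring moved the median of all genes by 0.148 at P56, 0.116 for Purkinje P14 to P56 and 0.143 for the difference, and by under 0.1 elsewhere. Replicate numbers did not pair the arrays: correlations of same-numbered arrays ran from -0.119 to 0.225 in 14 pairs, 5 of them over 0.1. A replicate block gave 7, 9, 7, 7, 5, 11, 12, 7, 3, 8 and 9 members in comparison order, with Cdh16 (-0.98) and Pcdh8 (1.40) not called at P56. The causes of these shifts were not tested. Signal over background could not be set for single probe sets, since no detection calls were used, and Stellate/Basket P35 and P56 have 2 arrays each.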

Other observations

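The 4 Purkinje P35 arrays fell into pairs for several members. Replicates 1 and 2 read 5.75 and 5.89 for Pcdh8, against 7.89 and 7.30 in replicates 3 and 4. Cdh11 read 5.24 and 5.05 against 7.31 and 7.41, and Celsr3 6.27 and 6.69 against 7.35 and 7.46. In the other direction, Cdh4 read 6.58 and 6.83 against 5.77 and 5.88, and Cdh22 7.64 and 7.16 against 6.45 and 6.67. The labels give no difference between these arrays, and no comparison was made between them.

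Cdh8, a type II cadherin, read 7.51 and 6.33 in the Stellate/Basket P35 arrays and 7.04 and 6.24 in Purkinje P35 replicates 3 and 4, and otherwise no more than 6.67.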
